A study of Gallus gallus with 5 samples.

Results

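Beta-actin, non-muscle myosin IIA, talin-1 and thymosin beta-4 are encoded by ACTB, MYH9, TLN1 and TMSB4X. These 4 genes of the actin cytoskeleton, each matched by its RefSeq accession to 1 row, are described here among the 16143 features of the count tables. They were chosen by their measured levels in these libraries and by the difference between the groups. Their differences are therefore given as a description, without a test. Total RNA was sequenced from DT40, a chicken B-cell lymphoma line, and all cells were CAP-H KO cells. CAP-H belongs to condensin I, a complex that shapes mitotic chromosomes. One group, labelled CAP-H on, has 3 libraries (replicates 1, 2 and 3) of cells kept without doxycycline. The other, labelled CAP-H off, has 2 libraries (replicates 1 and 3) of cells given doxycycline at 100 ng/ml, and the treatment lasted 36 h. The labels do not say how doxycycline acts on CAP-H, whether the line is 1 clone, or whether replicates came from separate cultures. Each p-value therefore rests on the spread among these libraries alone, which may be technical.

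Cells hold actin as monomers and as filaments, and the balance between these pools sets their shape and stiffness. Thymosin beta-4 is a small peptide that binds monomers and keeps them from assembling, whereas non-muscle myosin II pulls on filaments and talin couples filaments to integrins at the membrane. In lymphocytes the cortical filament network surrounds the antigen receptor and is remodelled when the cell adheres or divides.

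The libraries held 12199522 to 22533003 counts in all. The targeted gene could not be read, because 0 rows matched NCAPH. A feature without a symbol, XR_140315.1, had 208 to 406 counts in CAP-H on libraries and 185556 and 175268 in CAP-H off libraries, where it took 1.45% and 1.52% of all counts. It is not identified as NCAPH, and the labels were not checked by it. All 11 B-cell markers with a matched row passed the filter on low counts. Their summed level was 2280 to 2326 CPM (counts scaled to a common library size) in CAP-H on libraries and 1844 to 1902 in CAP-H off libraries. JCHAIN alone gave 1012 to 1040 CPM of the first sum and 847 and 862 CPM of the second. Single markers differed, with IKZF1 at 203 to 219 CPM in CAP-H on and 78.9 and 76.4 CPM in CAP-H off libraries. CD79B was at 193 to 212 CPM and at 213 and 224 CPM. Of these markers 1 rose and 5 fell. Here and below, a rise or fall is a call at an adjusted p under 0.05 in the edgeR test. Of all tested features 22.6% rose and 23.7% fell by it. The markers CD79A, BLNK and IKZF3 had no matched row and were not analysed here. T-cell markers summed to between 92.8 and 107 CPM, most of it CD3D. Among them CD4 held 29 counts in CAP-H off replicate 3 and 1 count in each other library. Fibroblast and smooth muscle markers summed to between 31.5 and 36.7 CPM, nearly all of it COL1A2. Erythroid and thrombocyte markers summed to at most 0.44 CPM. Macrophage and granulocyte markers summed to 77.5 to 83.1 CPM in CAP-H on libraries and 35.3 to 35.7 in CAP-H off libraries, and 4 of the 4 tested fell. Those 4 were MPEG1, MMP9, CYBB and CTSS, with 60 to 572 counts in a library. Of the others on that list, MARCO and CD14 held 1 count, the smallest value in the files, in every library. CSF3R held 4 to 8 counts, and CSF1R had no matched row. The part of other cell types in the results below was not tested.

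The 4 genes did not share 1 direction. ACTB, MYH9 and TLN1 were lower in CAP-H off libraries, and TMSB4X was higher. In each of the 4 genes the groups did not overlap. Among all 10079 tested features the groups did not overlap in 32.9% with lower and 32.1% with higher values in CAP-H off libraries. Nothing is read from the members' count, because the same values chose them. With Benjamini-Hochberg adjustment of the quasi-likelihood test in edgeR, 22.6% of all features rose and 23.7% fell, and the median log2 fold change was 0.00068. Scaling by library size alone moved that median to -0.18 and changed the calls from 2281 rises and 2387 falls to 1272 and 4119. Levels below are CPM scaled by TMM, given as mean ± SD, and a log2 fold change is that of CAP-H off minus CAP-H on. In bulk RNA, fewer cells expressing a gene and less of its RNA per cell cannot be told apart.

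ACTB (NM_205518.1, galGal4 chromosome 14, 4169149 to 4172342) encodes beta-actin, one of the cytoplasmic actins. It stood at 1524, 1650.1 and 1679 CPM in CAP-H on (replicates 1, 2 and 3) and at 557 and 572 CPM in CAP-H off (replicates 1 and 3). All 3 values of the first group lay far above both of the second, and the lowest of the 5 libraries was CAP-H off replicate 1. The group means were 1618 ± 82.5 (n = 3) and 565 ± 10.4 CPM (n = 2), a log2 fold change of -1.52 (SE 0.05), or a level 65.1% lower. Of the 10079 tested features, 100 had a lower log2 fold change. The counts behind these values ran from 6123 to 34488, at which counting error is at most 1.28%.

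MYH9 (NM_205477.1, chromosome 1, 51598549 to 51666511) encodes the heavy chain of non-muscle myosin IIA, the motor that contracts actin filaments. Its levels were 1233, 1225 and 1226 CPM in CAP-H on libraries and 636 and 624 CPM in CAP-H off libraries. The replicates lay closer together than those of the other 3 genes, with a coefficient of variation of 0.34% and 1.27% in the groups. Counting error alone is up to 1.22% for this gene, so the closeness is not read as a trait of MYH9. The mean went from 1228 ± 4.22 to 630.1 ± 8.0 CPM, which is 48.7% lower and -0.96 as a log2 fold change (SE 0.04). A total of 346 features had a lower log2 fold change.

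TLN1 (NM_204523.1, chromosome Z, 9031785 to 9062779) encodes talin-1, which binds integrin tails and filaments. It was at 505, 519 and 521 CPM in CAP-H on libraries and at 283 and 311 CPM in CAP-H off libraries. Here the CAP-H off libraries differed more from each other than the CAP-H on libraries did. The means were 515 ± 8.39 and 297 ± 19.5 CPM, a log2 fold change of -0.79 (SE 0.06) and a level 42.4% lower.

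TMSB4X (NM_001001315.1, chromosome 1, 122807427 to 122807975) encodes thymosin beta-4. Its levels were 327, 349.7 and 377 CPM in CAP-H on libraries and 684 and 647 CPM in CAP-H off libraries. The highest library of the first group lay well below the lower of the second. The mean went from 352 ± 25.1 to 666 ± 26.4 CPM, which is a log2 fold change of 0.92 (SE 0.06) or 1.89-fold, and 470 features had a higher log2 fold change. With scaling by library size alone the log2 fold changes became -1.70 for ACTB, -1.14 for MYH9, -0.98 for TLN1 and 0.74 for TMSB4X, so none of the 4 turned its direction.

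**Figure D1:**
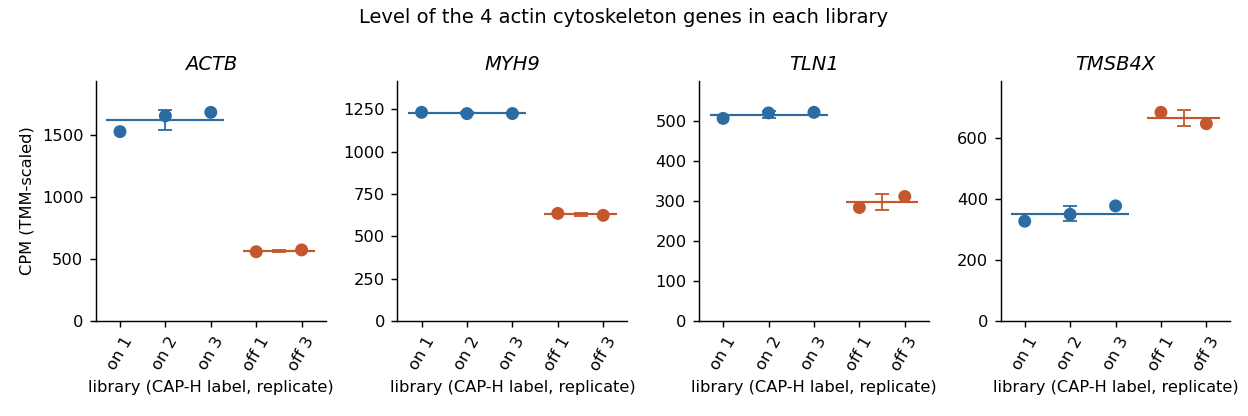
CPM of ACTB, MYH9, TLN1 and TMSB4X (y axes, from 0, each with its own range) in each library (x axis, CAP-H label and replicate). Points are libraries, horizontal lines group means and bars 1 SD (n = 3 on, n = 2 off); the ACTB mean goes from 1618 to 565 CPM and that of TMSB4X from 352 to 666 CPM.

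In the authors' deposited table the same accessions carry log2 fold changes of -1.60 for ACTB, -1.06 for MYH9, -0.88 for TLN1 and 0.83 for TMSB4X. The authors' deposited table does not state its direction, and its signs are those found here.

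The ratio of TMSB4X to ACTB counts within a library does not depend on sequencing depth or scaling. It was 0.215, 0.212 and 0.225 in CAP-H on libraries and 1.23 and 1.13 in CAP-H off libraries. TMSB4X had fewer counts than ACTB in every library of the first group and more in both of the second. The mean ratio went from 0.217 ± 0.0068 to 1.18 ± 0.068, a difference of 2.44 on the log2 scale or 5.43-fold. The pooled SD on that scale was 0.06, which describes spread and is no test, because the same values chose the genes. Exon lengths are not given in the files, so the ratio compares libraries and is not a ratio of molecules.

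Ratios within the other pairs compare the 3 lower genes with each other. MYH9 counts were 0.761 ± 0.042 of those of ACTB in CAP-H on libraries and 1.12 ± 0.035 in CAP-H off libraries, a difference of 0.55 on the log2 scale. TLN1 counts went from 0.319 ± 0.011 to 0.526 ± 0.025 of those of ACTB, a difference of 0.72. ACTB was thus lower by a larger factor than either of them. The ratio of TLN1 to MYH9 differed least of these pairs but was higher in both CAP-H off libraries. It was 0.410, 0.424 and 0.425 in CAP-H on libraries and 0.445 and 0.498 in CAP-H off libraries. The difference was 0.17 on the log2 scale, and the pooled SD was 0.07. The ratio of TMSB4X to MYH9 differed by 1.89 and that of TMSB4X to TLN1 by 1.72 on the log2 scale, both higher in CAP-H off libraries.

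**Figure D2:**
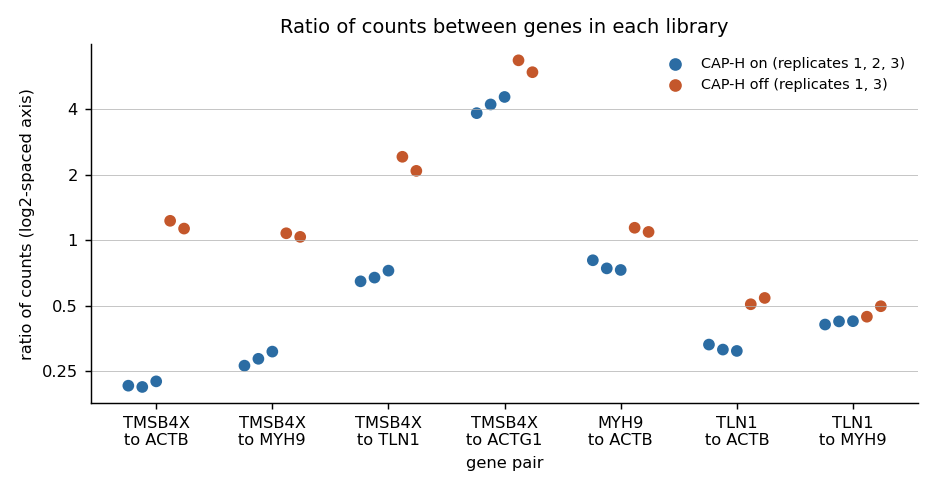
Ratio of counts between 2 genes (y axis, spaced by log2) in each of the 5 libraries for 7 gene pairs (x axis); blue points are CAP-H on and orange points CAP-H off. TMSB4X to ACTB stands at 0.212 to 0.225 in the CAP-H on libraries and at 1.13 and 1.23 in the CAP-H off libraries, and TLN1 to MYH9 shows the smallest gap.

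The span of ACTB overlaps that of other features, so part of its counts may be shared. MIR3533 (chromosome 14, 4170286 to 4170369), a microRNA gene, lies inside ACTB, and its counts were 7.80% ± 0.33 of those of ACTB in CAP-H on libraries and 7.93% ± 0.038 in CAP-H off libraries. The counts of MIR3533 thus kept a near-constant proportion to those of ACTB, and whether the 2 features share reads cannot be told from the files. XR_140264.1 (chromosome 14, 4154222 to 4169800), a predicted RNA without a symbol, covers 652 bases of ACTB, which is 4.19% of its own span. Its level went from 876 ± 57.7 to 273 ± 8.81 CPM (-1.68 on the log2 scale, SE 0.06), and its counts were 0.541 ± 0.011 of those of ACTB in the first group and 0.484 ± 0.0067 in the second. If every read of XR_140264.1 were taken from ACTB, ACTB would stand at 714 to 773 CPM in CAP-H on libraries and 290.3 and 293 CPM in CAP-H off libraries, a log2 ratio of -1.35. The ratio of TMSB4X to these reduced counts differed by 2.27 on the log2 scale. FBXL18, which ends 4266 bases before ACTB and also overlaps XR_140264.1, did not pass the test (log2 fold change 0.16, SE 0.14, adjusted p = 0.39).

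**Figure D3:**
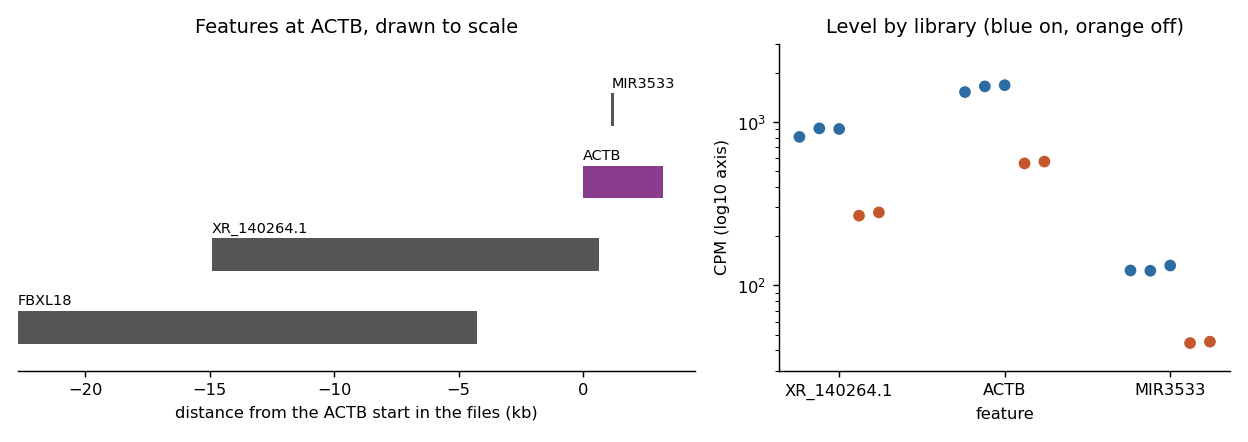
Left, the features at ACTB drawn to scale by distance from its start in the files (kb), with MIR3533 inside ACTB and XR_140264.1 overlapping its start by 652 bases. Right, CPM of XR_140264.1, ACTB and MIR3533 in each library (log10 axis, blue CAP-H on, orange CAP-H off); all 3 are lower in both CAP-H off libraries.

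The other 3 genes overlap no other feature. Next to TLN1, 270 bases away, CREB3L4 fell (-0.22 on the log2 scale, SE 0.07, adjusted p = 0.014). TLR7, 48.3 kb from TMSB4X, fell by 1.05 (SE 0.15, adjusted p = 3.9e-05), against the direction of TMSB4X. Before MYH9, NM_001031410.1 rose by 0.82 (SE 0.06, adjusted p = 2.1e-08), also against its neighbour. Within 500 kb of ACTB 13 of the other 28 tested features fell and 3 rose, with MIR3533 and XR_140264.1 among the 13. Around MYH9 5 of 16 fell and 7 rose, around TLN1 7 of 22 fell and 5 rose, and around TMSB4X 2 of 8 fell and 1 rose. Over all tested features 23.7% fell and 22.6% rose. These windows were chosen after values were seen, and each held features that rose and features that fell.

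Genes with other parts in the actin system were grouped in 10 role lists holding 165 genes besides the 4. Of these 104 had a matched row and 84 passed the filter on low counts. Symbols were found for 52.3% of rows, so a gene without a matched row may still have been counted. The lists are thus covered only in part. A total of 36 (42.9%) fell, 13 (15.5%) rose and 35 did not pass, with a median log2 fold change of -0.19. Over all features 23.7% fell and 22.6% rose, at a lower typical level (a median of 37.7 CPM against 91.3 CPM in the lists). With library size alone 54 (64.3%) fell and 8 (9.52%) rose, against 40.9% and 12.6% of all features. The lists were chosen with earlier results of these data known, so these shares and the adjusted p-values below are a description, not independent support. Genes named below beyond the 4 of lowest p in each list were chosen after their values were seen.

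Of the 2 other actin genes tested, 1 rose and 1 did not pass. ACTG1, the gamma cytoplasmic actin, whose coding sequence is close to that of ACTB, stood at 85.4, 83.2 and 83.0 CPM in CAP-H on libraries and at 102 and 109 CPM in CAP-H off libraries. It rose by 0.33 (SE 0.05, adjusted p = 0.00012), and by 0.15 with library size alone (adjusted p = 0.031). ACTA2, the smooth muscle actin, was at 0.90 ± 0.33 and 0.64 ± 0.42 CPM (log2 fold change -0.60, adjusted p = 0.40). ACTC1 and ACTG2 stayed below the filter, and ACTA1 had no matched row. The ratio of ACTB to ACTG1 counts was 17.8, 19.8 and 20.2 in CAP-H on libraries and 5.46 and 5.22 in CAP-H off libraries. Reads could be split between such similar genes by the counting, so each of these levels is uncertain. With ACTG1 in place of ACTB, the ratio of TMSB4X to actin counts went from 4.19 ± 0.36 to 6.30 ± 0.56, a difference of 0.59 on the log2 scale.

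Among 9 tested genes of monomer binding and filament disassembly besides TMSB4X, 2 rose, 3 fell and 4 did not pass, with a median of -0.13, and 6 fell with library size alone. TMSB15B, another beta-thymosin, rose from 214 ± 12.2 to 348 ± 13.1 CPM (0.70, SE 0.07, adjusted p = 4.2e-07). Both of its CAP-H off libraries lay above all its CAP-H on libraries, as in 32.1% of all tested features. TMSB4X was chosen by this same contrast, so no trait of the beta-thymosin family is read from these genes. COTL1, a filament-binding protein of the cofilin family fold, rose from 1.92 ± 0.023 to 3.91 ± 0.28 CPM (1.02, SE 0.28, adjusted p = 0.0072). CAP1, which speeds the recycling of monomers, fell from 444 ± 11.6 to 309 ± 9.48 CPM (-0.52, SE 0.06, adjusted p = 3.0e-06). WDR1, which helps cofilin take filaments apart, fell by 0.40 (SE 0.06, adjusted p = 7.1e-05). The profilin gene PFN2 fell by 0.15 (SE 0.06, adjusted p = 0.031), a call lost without CAP-H off replicate 1 (-0.11) and without CAP-H on replicate 2 (-0.11) or 3 (-0.16). Without CAP-H off replicate 3 the call of COTL1 was lost (0.95, adjusted p = 0.061). Destrin, encoded by DSTN, was at 976 ± 43.6 and 918 ± 8.0 CPM and did not pass (-0.09, adjusted p = 0.14), though it did without CAP-H on replicate 1 (-0.12, adjusted p = 0.034). With library size alone DSTN also passed (-0.27, adjusted p = 2.5e-05).

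Of 7 tested subunit genes of the Arp2/3 complex, which starts filament branches, 4 fell, 1 rose and 2 did not pass (5 and 1 with library size alone). ACTR2, encoding the actin-related subunit Arp2, went from 249.6, 248.5 and 249.2 CPM to 147.7 and 146.8 CPM (-0.76, SE 0.06, adjusted p = 9.4e-08). ACTR3, encoding Arp3, fell by 0.64 (SE 0.07, adjusted p = 2.2e-06) and ARPC1B by 0.81 (SE 0.06, adjusted p = 3.6e-08). ACTR3B, a relative of ACTR3, rose from 135 ± 3.87 to 178 ± 2.24 CPM (0.40, SE 0.06, adjusted p = 3.1e-05). ARPC1B lies 189 kb from ACTB on chromosome 14 (4361219 to 4366884). ARPC1A, which overlaps another feature, lies nearer to ACTB at 171 kb and did not pass (-0.09, SE 0.07, adjusted p = 0.32). With library size alone ARPC1A did pass (-0.27, adjusted p = 0.0025). ARPC2, which overlaps another feature, fell by 0.18 (SE 0.06, adjusted p = 0.028). Its call was lost without CAP-H off replicate 3 (-0.16) and without CAP-H on replicate 2 (-0.17) or 3 (-0.16).

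Regulators of nucleation and elongation fell in 7 of 10 tested cases and rose in 1, with a median of -0.48 (8 and 1 with library size alone). The list names 30 genes, of which only 12 had a matched row. Over all features 23.7% fell and 22.6% rose (40.9% and 12.6% with library size alone). WIPF1, the partner of the Wiskott-Aldrich syndrome protein, went from 59.7 ± 3.21 to 28.3 ± 3.16 CPM (-1.08, SE 0.09, adjusted p = 7.3e-08). CYFIP2, a subunit of the WAVE complex that overlaps another feature, fell by 0.88 (SE 0.07, adjusted p = 2.8e-08). HCLS1, the blood-cell relative of cortactin, fell by 0.74 (SE 0.08) and EVL, of the Ena/VASP family, by 0.60 (SE 0.07). WASF2 fell by 0.42 (SE 0.06), the formin gene DIAPH2 by 0.44 (SE 0.07) and WASL by 0.26 (SE 0.07, adjusted p = 0.0070), the last without a call once CAP-H off replicate 1 was left out (-0.24, adjusted p = 0.065). CYFIP1, the WAVE subunit related to CYFIP2, rose from 2.01 ± 0.57 to 5.38 ± 0.74 CPM (1.48, SE 0.29, adjusted p = 0.00067).

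Besides MYH9, 8 genes of non-muscle myosin II and its regulators were tested, of which 4 fell and 1 rose (6 and 1 with library size alone). MYH10, the heavy chain of myosin IIB, went from 154 ± 1.63 to 101 ± 2.29 CPM (-0.61, SE 0.05, adjusted p = 9.2e-08). MYH11, the smooth muscle heavy chain, stood at 58.9, 46.1 and 48.5 CPM in CAP-H on libraries and at 77.4 and 82.5 CPM in CAP-H off libraries, a rise of 0.63 (SE 0.09, adjusted p = 2.8e-05). The 3 heavy chain genes thus did not share 1 direction. Whether stretches of similar sequence split reads among them was not tested. PPP1R12A, which targets the phosphatase to myosin, fell by 0.48 (SE 0.06) and the kinase gene ROCK1 by 0.32 (SE 0.06). The light chain gene MYL12A fell by 0.20 (SE 0.07, adjusted p = 0.018), a call that did not hold once CAP-H on replicate 1 was left out (-0.16, adjusted p = 0.083).

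In the list of integrins and focal adhesion, 4 of 15 tested genes besides TLN1 fell, 2 rose and 9 did not pass, and 9 fell and 1 rose with library size alone. TLN2, the second talin gene, was at 64.8 ± 0.99 and 72.3 ± 8.81 CPM (0.16, adjusted p = 0.089, and -0.03 with library size alone), and it overlaps another feature. Without CAP-H off replicate 1 it passed (0.27, adjusted p = 0.015). ITGB1, the integrin beta-1 subunit that talin binds, was at 711 ± 9.49 and 715 ± 12.7 CPM (0.01, SE 0.05, adjusted p = 0.89, and -0.17, adjusted p = 0.0031 with library size alone). CRKL, an adaptor, fell by 0.71 (SE 0.09, adjusted p = 5.2e-06), ZYX, the zyxin gene, by 0.62 (SE 0.13), and RAP1A and RAP1B, GTPases that switch integrins on, by 0.29 (SE 0.05) and 0.28 (SE 0.06). VCL, the gene of the talin partner vinculin, rose from 3.16 ± 0.53 to 6.82 ± 1.18 CPM (1.07, SE 0.24, adjusted p = 0.0016). The leukocyte integrin gene ITGB2 rose by 0.21 (SE 0.06, adjusted p = 0.012), a call lost without CAP-H off replicate 3 (0.13) and with library size alone (0.03).

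Crosslinkers and membrane linkers divided, with 4 of 10 tested genes lower and 3 higher and a median of 0.08 that turned to -0.10 with library size alone (4 falls and 1 rise). The spectrin genes SPTAN1 (523 ± 17.8 to 367 ± 10.7 CPM, -0.51, SE 0.06, adjusted p = 2.7e-06) and SPTBN1 (-0.53, SE 0.07) fell, and SPTBN1 overlaps another feature. Radixin, encoded by RDX, fell by 0.26 (SE 0.05), whereas its relative ezrin, encoded by EZR, rose by 0.28 (SE 0.06). ANLN, which ties filaments to the cleavage furrow, rose by 0.28 (SE 0.06), and ACTN2, the muscle alpha-actinin, by 0.81 (SE 0.23) from 3.93 ± 0.71 CPM. The rises of EZR and ANLN lost their calls with library size alone (0.10 each), and that of ACTN2 without CAP-H off replicate 3 (0.65, adjusted p = 0.083).

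Genes for capping, severing and side binding fell in 4 of 10 tested cases and rose in 0 (8 and 0 with library size alone). Their changes were small, with TPM3, a tropomyosin, at -0.25 (SE 0.06, adjusted p = 0.0042), the calponin gene CNN2 at -0.39 (SE 0.12), the capping protein gene CAPZA1 at -0.20 (SE 0.06) and the adducin gene ADD1 at -0.20 (SE 0.05). TPM3 and ADD1 overlap other features. Calls were lost for CNN2 without CAP-H off replicate 1 (-0.34), for ADD1 without CAP-H off replicate 3 (-0.17), and for CAPZA1 without CAP-H off replicate 3 (-0.15) or CAP-H on replicate 2 (-0.20).

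SRF, the transcription factor whose coactivators sense free actin monomers, fell from 55.5 ± 5.12 to 44.7 ± 4.93 CPM (-0.32, SE 0.09, adjusted p = 0.0088). Without CAP-H off replicate 1 its call was lost (-0.21, adjusted p = 0.13). Its coactivator genes MRTFA and MRTFB had no matched row and were not analysed here, and MYOCD stayed below the filter.

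**Figure D4:**
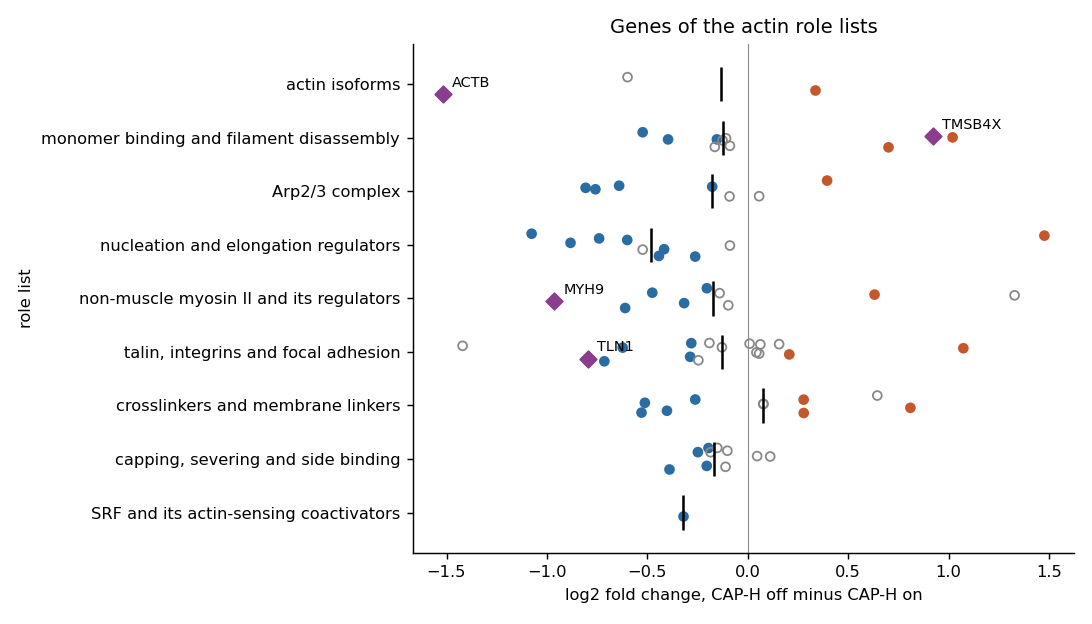
Log2 fold change (x axis, CAP-H off minus CAP-H on) of the tested genes of 9 of the 10 role lists (y axis). Blue and orange points fell and rose at an adjusted p under 0.05, open points did not pass, purple diamonds are the 4 genes described here, and black bars are list medians without them; all falls shown lie above ACTB (-1.52), and the rises of CYFIP1 (1.48), VCL (1.07) and COTL1 (1.02) lie beyond TMSB4X (0.92).

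Other genes followed the members closely across the 5 libraries. Likeness was the root mean square difference of log2 CPM after centring each gene, over 5 libraries and 4988 features with a symbol and a mean of at least 5 CPM. Nearest to ACTB were MIR3533, which lies inside it (0.04), CMTM7 (0.05), a membrane protein gene on chromosome 2, and NATD1 (0.06), which lies 338 kb from ACTB on chromosome 14. CMTM7 stood at 184, 198 and 193 CPM in CAP-H on libraries and at 65.9 and 62.5 CPM in CAP-H off libraries. Nearest to MYH9 were PTPRC, the leukocyte phosphatase CD45 (0.01; 372 ± 3.67 to 190 ± 1.11 CPM), TTPAL (0.03) and TXNRD1, a thioredoxin reductase (0.04). To TLN1 the nearest were CLTC, the clathrin heavy chain (0.03; 833 ± 37.3 to 470.2 ± 37.4 CPM), LASP1, an actin-binding protein that overlaps another feature (0.03), and TIMP2 (0.03). The genes nearest to TMSB4X were RPL35, a ribosomal protein (0.02; 432 ± 34.0 to 838 ± 27.1 CPM), COX7A2, of cytochrome c oxidase (0.02), and MSMO1, of sterol synthesis (0.03). Between members the distance was 0.10 for MYH9 and TLN1, 0.28 for ACTB and MYH9, 0.36 for ACTB and TLN1, and 0.85 to 1.2 for TMSB4X and the other 3. With 5 libraries in 2 groups, the distance depends mainly on how far a gene differed between the groups.

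**Figure D5:**
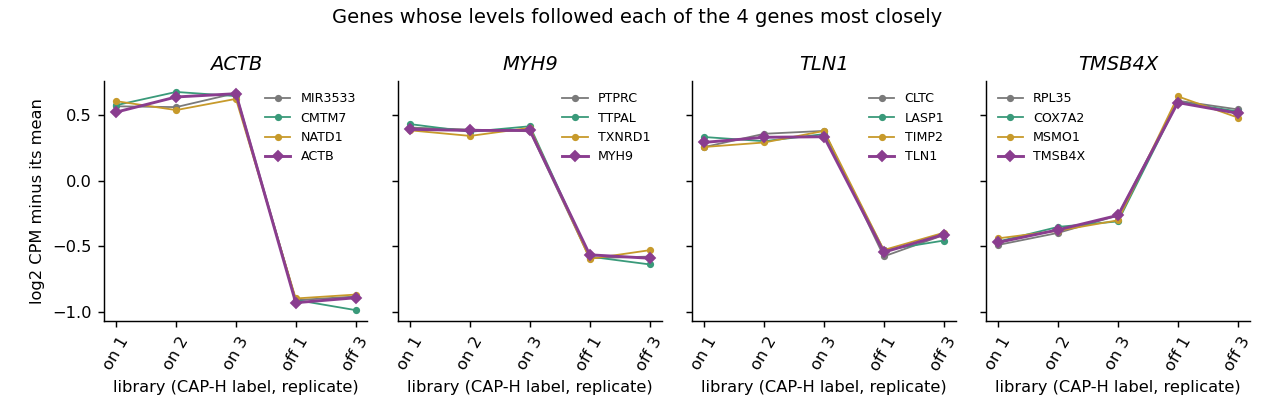
Log2 CPM minus its mean over the 5 libraries (y axis) for each of the 4 genes (purple diamonds) and the 3 genes nearest to it (circles), by library (x axis). Lines only join the points of 1 gene; the curves lie within a root mean square difference of 0.01 to 0.06 of the member.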

How the data were processed

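The authors deposited whole-number counts per RefSeq transcript on galGal4, and edgeR 3.2.3, FastQC, Bowtie and TopHat2 2.0.8b appear, without roles, in the submitters' processing notes. For the read counter and the strand setting, nothing is given in the sources used. The smallest deposited count is 1. A table deposited by the authors holds, per the file headers, p-values and adjusted p-values, a likelihood ratio score, the log2 of mean CPM and log2 fold changes. Only its log2 fold changes are used.

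Rows with the same interval or identifier and equal counts were reduced to 1, which left 16143 features from 17036 rows, and 2095 of them (13.0%) overlap another. Symbols came from a RefSeq table of GRCg7b by accession without version (8905 rows, 52.3%). The test was that of edgeR 4.0.16 on R 4.3.3 (filterByExpr, TMM, glmQLFit, glmQLFTest, no covariates, Benjamini-Hochberg adjustment over 10079 features, threshold 0.05). It was also run on simulated counts in which only a small part of the features changed, up or down at equal odds. That run cannot check the scaling where as many features differ as here. TMM factors were 1.04 to 1.07 (CAP-H on) and 0.927 to 0.928 (CAP-H off). The SE is the size of the log2 fold change over the root of F. For the 4 members, chosen by this contrast, it is a description and not independent support. No 2 libraries held identical counts. DESeq2 1.42.0, other scalings, no filter, a replicate block and leaving out each library were alternatives. Counting error covers counting only.

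The members and lists were chosen with earlier results of these data known. Named by rule are the 4 members, up to 4 genes of lowest p per list that passed, the 3 genes nearest to each member by pattern, and neighbours. Further list genes were named after their values were seen. Sequences are not printed here. The results of 1 role list and of 1 gene in another are left out, although totals over the lists count them.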

Additional observations from a re-analysis of the deposited data

How the results depend on the processing

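Directions of the 4 genes and of the TMSB4X to ACTB ratio held under each alternative tried. With library size alone the log2 fold changes were -1.70 (ACTB), -1.14 (MYH9), -0.98 (TLN1) and 0.74 (TMSB4X), and 8 role-list genes rose instead of 13. Without a low-count filter MYH9 came to -1.0. Leaving out 1 library gave -0.98 to -0.95 for MYH9 and -0.86 to -0.73 for TLN1. The log2 difference of the ratio (2.44) became 2.27 with the counts of XR_140264.1 taken from ACTB, 0.59 with ACTG1 as the denominator, and 1.89 with MYH9 and 1.72 with TLN1, both denominators chosen after seeing the data. Across the alternatives 3839 to 5391 features were called, against 4668 in the fit as reported (5348 at unadjusted p under 0.05). With the replicate number as a block 3856 features were called, 12 role-list genes rose and 31 fell, and PFN2, ARPC2, CAPZA1, MYL12A and CNN2 were not called (adjusted p = 0.16, 0.13, 0.084, 0.067 and 0.0503). The labels do not say that equal replicate numbers pair cultures, so the fit as reported has no block. Deviations of same-numbered libraries correlated at -0.01 for replicates 1 and -0.03 for replicates 3. With 2 CAP-H off libraries the deviations of 1 mirror those of the other, so these values cannot decide whether libraries were paired. With 1 library of CAP-H off left, it is assumed to vary like the other group. Of the 49 role-list genes called, 34 kept their call under each alternative. How far ACTB, ACTG1 and overlapping features share reads was not tested.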
